A study of Mus musculus with 24 samples.

Results

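Carbonic anhydrases, the enzymes that interconvert carbon dioxide and bicarbonate, were followed here through 7 genes, *Car2*, *Car3*, *Car4*, *Car5b*, *Car8*, *Car12* and *Car13*, out of 49452 genes in the expression table. They were taken by symbol as members of the family, and the family was selected on the measured FPKM changes of *Car2* and *Car3*, which moved strongly in these data. The levels and changes of those 2 genes are therefore given as descriptions without a test, and tests are given for the other members. The series holds 24 libraries in 8 groups of 3, each from a culture of mouse stromal vascular fraction cells, the part of fat tissue in which adipocyte precursors are found. Cells came from interscapular brown fat (BAT) or epididymal visceral white fat (vWAT) of male C57BL/6 mice aged 6 to 8 weeks, with BAT of several animals pooled where cells were scarce. All cultures were nucleofected with 100 nmol/l of an siRNA, either non-targeting (siCtrl, written siKO in the library titles) or directed at the lincRNA *H19* (siH19, 1 siRNA). RNA was taken before induction (d0) or at day 3 of differentiation (d3), which began with 48 h of induction medium. Insulin, dexamethasone, rosiglitazone and IBMX were used for induction, by the labels in both depots and by the study's methods for white fat. Indomethacin and triiodothyronine are named for BAT alone, and the medium that followed held rosiglitazone for vWAT and triiodothyronine for BAT. Depot and medium thus cannot be told apart at d3.

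Carbonic anhydrases are zinc enzymes that sit in different parts of the cell. *Car2*, *Car3* and *Car13* encode cytosolic enzymes, *Car5b* a mitochondrial enzyme, *Car4* and *Car12* enzymes held at the cell membrane, and *Car8* a related protein that lacks the classical catalytic activity. In fat cells the bicarbonate they provide is the substrate of carboxylases such as pyruvate carboxylase and acetyl-CoA carboxylase, and CAR3 is known as an abundant protein of adipose tissue and slow muscle with low hydratase activity.

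The zinc ion is held by 3 histidines, and the coding stretch around the first 2 of these positions is shown to set the catalytic members beside *Car8*. Each line gives 24 bases of the mouse coding sequence (GENCODE M21 transcripts), 5′ to 3′, with the codons of the first and second zinc-binding positions in capitals.
*Car2*: cagtttCACtttCACtggggctca
*Car3*: caattcCATcttCACtggggctcc
*Car13*: cagttcCATttgCACtgggggtca
*Car5b*: cagtttCATtttCATtggggagcc
*Car4*: cagttgCACctgCACtggtcaaat
*Car12*: cagctgCACttgCACtgggggaac
*Car8*: gaagttAGAtttCACtggggaaga
Histidine codons stood at all 3 positions in 6 of the 7 members, and *Car8* had 2.

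On GRCm38, *Car13* (chr3:14641727-14663002, plus strand), *Car1* (chr3:14766216-14808368, minus strand), *Car3* (chr3:14863512-14872523, plus strand) and *Car2* (chr3:14886273-14900770, plus strand) formed a cluster of 4 protein-coding genes over 259 kb, with 13.7 kb between the end of *Car3* and the start of *Car2*. The other members lay apart, *Car4* at chr11:84957786-84966044, *Car5b* at chrX:163976822-164027997, *Car8* at chr4:8143362-8239041 and *Car12* at chr9:66713686-66766845. No other annotated gene overlapped a member except *Car8*, which overlapped a pseudogene and a miRNA gene.

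Values are FPKM, fragments scaled by transcript length and library size, so levels can be compared between genes per length. The summed FPKM of a library was 710794 to 841456, and relative depth, read from the steps between low values, was 0.826 to 0.983 in BAT and 1.02 to 1.17 in vWAT libraries. *H19* served as the check of the knockdown. It was 108 to 160 FPKM in siCtrl and 2.82 to 5.20 in siH19 libraries of BAT at d0, 83.2 to 99.7 against 12.04 to 16.9 in BAT at d3, 11.3 to 12.3 against 0.630 to 1.76 in vWAT at d0, and 8.19 to 8.90 against 0.291 to 0.966 in vWAT at d3. The groups were apart in all 4 settings. The 9 brown fat markers summed to 821 to 936 FPKM in BAT siCtrl and 154 to 172 in vWAT siCtrl at d3, and *Ucp1*, the uncoupling protein of brown fat, was 12.1 ± 3.79 FPKM (SD, n = 3) in BAT siCtrl at d3 and listed at 0 in vWAT siCtrl and siH19 at both days. In bulk RNA, fewer cells of a type and less RNA per cell cannot be told apart.

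*Car3* made up most of the family's FPKM in every group. Its share of the summed FPKM of the 7 members was 97.5% in vWAT siCtrl at d0 and 95.8% at d3, 94.9% in BAT siCtrl at d0 and 77.9% at d3, and it was lowest in BAT siH19 at d3, at 71.6%. In vWAT at d3 *Car3* ranked 13th among all genes by mean FPKM in siCtrl and in siH19. *Car5b* came next at d3, *Car2* and *Car13* followed, *Car4* stayed under 6 FPKM, and *Car8* and *Car12* stayed under 1 in all 24 libraries. Only 5 of the 7 members reached 1 FPKM in 3 or more libraries. The plot of FPKM by group shows these orders of magnitude, gene by gene.

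**Figure D1:**
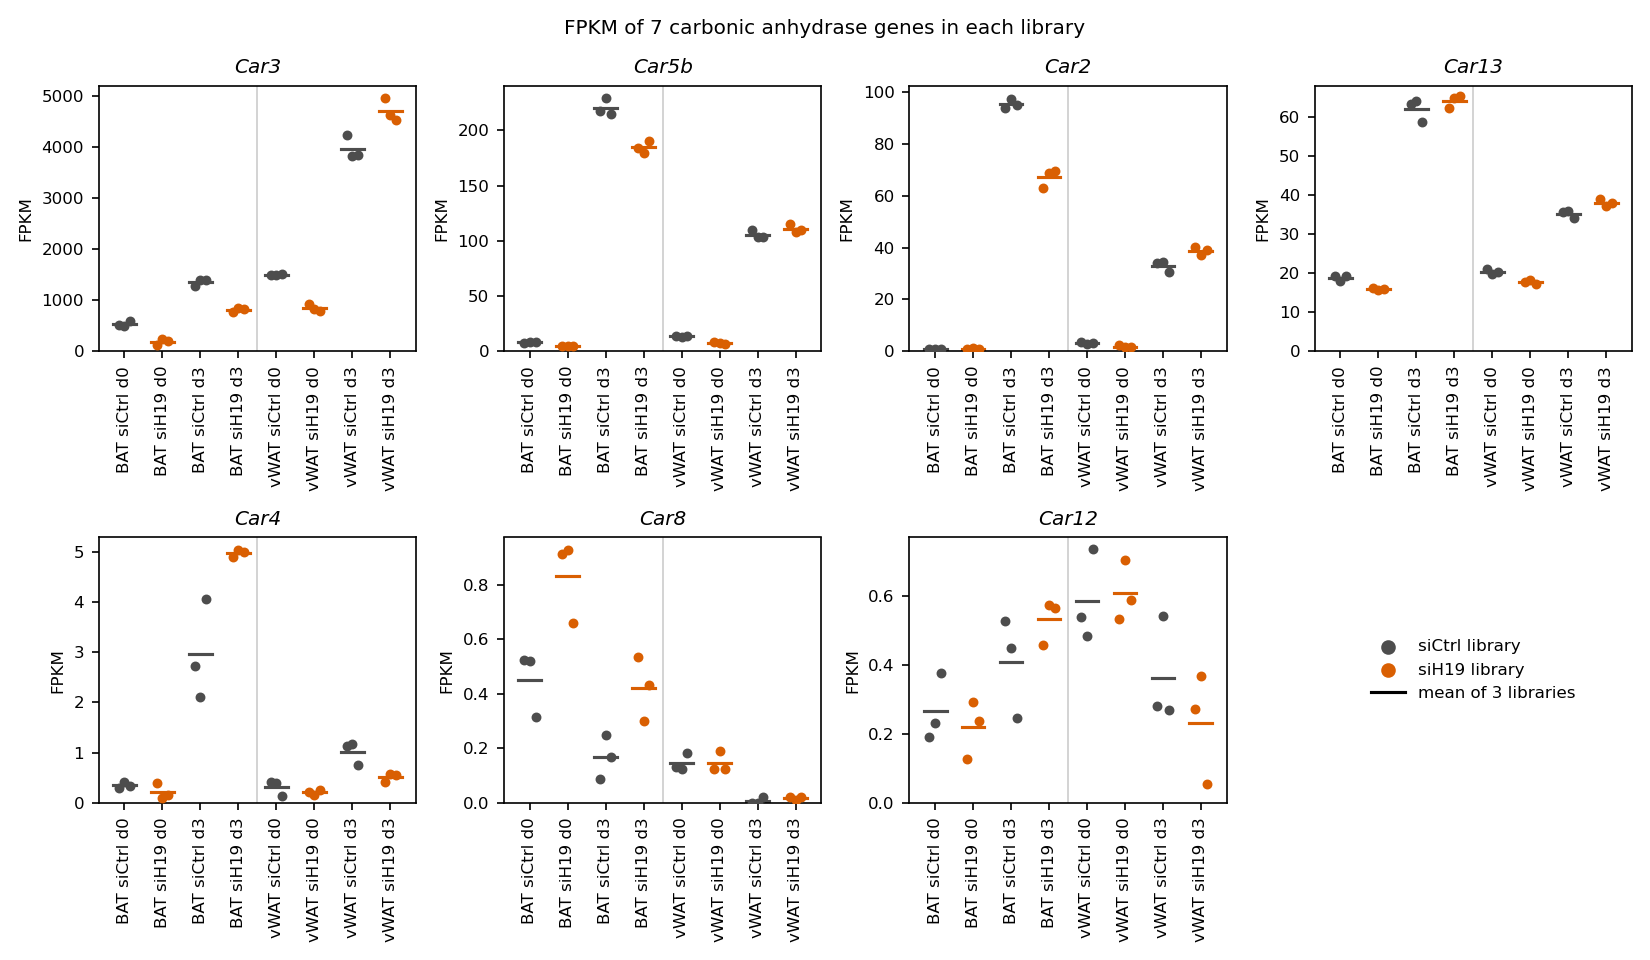
FPKM (linear axes from 0, with a scale of its own for each gene) of the 7 carbonic anhydrase genes in each library, by depot, siRNA and day. Points are libraries and lines are means of 3. *Car3* was highest in vWAT at d3, while *Car5b*, *Car2*, *Car13* and *Car4* were highest in BAT at d3. *Car8* and *Car12* stayed under 1.

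*Car3* was higher in vWAT than in BAT, rose in level between the days in both, and was lower with siH19 everywhere except in vWAT at d3. In BAT at d0 the siCtrl libraries had 518, 499 and 589 FPKM and the siH19 libraries 122, 232 and 199. In vWAT at d0 they had 1485, 1496 and 1514 with siCtrl and 916, 821 and 784 with siH19. Every siH19 library at d0 lay below every siCtrl library of its depot. The siH19 mean was 34.4% of the siCtrl mean in BAT and 56.1% in vWAT, log2 differences on the log2(FPKM + 1) scale of -1.58 (replicate SD 0.35) and -0.84 (replicate SD 0.08).

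At d3 *Car3* was 1270.5, 1390.5 and 1385 FPKM in BAT siCtrl and 761, 849 and 834 in BAT siH19. In vWAT at d3 it was 4223, 3823 and 3844 with siCtrl and 4950.0, 4617 and 4525 with siH19. The groups were apart in both depots and stood in opposite order: BAT siH19 was at 60.4% of siCtrl, vWAT siH19 at 119%. The log2 differences were -0.73 (replicate SD 0.08) and 0.25 (replicate SD 0.07). Between d0 and d3 in siCtrl the mean went from 535 ± 47.5 to 1349 ± 67.7 FPKM in BAT and from 1499 ± 14.5 to 3963 ± 225 in vWAT (SD, n = 3 each). Over the 8 groups the levels ran down from vWAT siH19 d3, vWAT siCtrl d3, vWAT siCtrl d0 and BAT siCtrl d3 to vWAT siH19 d0, BAT siH19 d3, BAT siCtrl d0 and BAT siH19 d0. Only vWAT siH19 d0 and BAT siH19 d3 overlapped among neighbours in this order.

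*Car2*, the highly active cytosolic enzyme, was nearly silent in BAT precursors and was highest in BAT at d3. Its FPKM in siCtrl was 0.852 ± 0.0336 in BAT at d0 and 95.5 ± 1.80 at d3, a ratio of means of 112, and 3.23 ± 0.307 in vWAT at d0 and 33.0 ± 2.09 at d3, a ratio of 10.2 (SD, n = 3 each). BAT was therefore below vWAT at d0 and above it at d3, with no overlap at either day. With siH19 in BAT at d3 the libraries had 62.9, 68.9 and 69.6 FPKM against 94.0, 97.5 and 94.97 with siCtrl. All 3 were below all siCtrl libraries, at 70.3% of their mean. In vWAT at d3 the siH19 libraries, at 40.4, 37.3 and 38.9, were all above the siCtrl libraries at 33.9, 34.4 and 30.6, at 118% of their mean. At d0 the vWAT groups were apart as well, 2.24, 1.52 and 1.65 with siH19 against 3.55, 2.94 and 3.21, whereas in BAT they overlapped, from 0.752 to 1.14 FPKM. On the log2(FPKM + 1) scale the siH19 differences of *Car2* were -0.50 in BAT and 0.23 in vWAT at d3, and 0.02 and -0.60 at d0.

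*Car13*, the third cytosolic gene, rose with differentiation in both depots and did so more in BAT, with small siH19 differences. Its siCtrl mean was 18.7 ± 0.703 FPKM at d0 and 62.0 ± 2.85 at d3 in BAT, and 20.3 ± 0.744 and 35.2 ± 1.09 in vWAT (SD, n = 3 each). The rise was 3.31-fold in BAT (log2 difference 1.67, SE 0.05, adjusted p = 3.9e-07) and 1.73-fold in vWAT (log2 difference 0.76, SE 0.05, adjusted p = 2.3e-05), by limma with Benjamini-Hochberg adjustment over all genes tested. The rise was larger in BAT than in vWAT by 0.91 on the log2 scale (SE 0.07, adjusted p = 1.2e-06, depot by day interaction). At d3 *Car13* was 1.76-fold higher in BAT (adjusted p = 1.9e-05), and at d0 the depots were not called different (0.923-fold, adjusted p = 0.14).

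With siH19 *Car13* was at 85.0% of siCtrl in BAT at d0 (log2 difference -0.22, SE 0.05, adjusted p = 0.085) and at 87.1% in vWAT at d0 (-0.19, SE 0.06, adjusted p = 0.16), below all siCtrl libraries in both depots yet not past the threshold. At d3 it was at 103% in BAT (0.05, SE 0.05, adjusted p = 0.57), where the groups overlapped, and at 108% in vWAT (0.11, SE 0.04, adjusted p = 0.50), where the siH19 libraries at 38.9, 37.2 and 37.8 lay above the siCtrl libraries at 35.7, 36.0 and 33.9. The BAT d3 difference turned to -0.02 with another library scaling. The siH19 difference of *Car13* differed between the days in each depot (day by siRNA interaction 0.27 in BAT, adjusted p = 0.031, and 0.30 in vWAT, adjusted p = 0.047). Both of these calls were lost with another library scaling (adjusted p = 0.19 and 0.076), and that in vWAT without any 1 of its 12 libraries (0.060 to 0.13).

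*Car5b*, the mitochondrial member, rose most strongly of the tested members during differentiation. Its FPKM in siCtrl was 7.77, 7.95 and 8.43 at d0 and 218, 229 and 215 at d3 in BAT, and 13.4, 13.0 and 14.2 at d0 and 110.0, 104 and 103 at d3 in vWAT. The groups were far apart. The rise was 27.4-fold in BAT (log2 difference 4.61, SE 0.05, adjusted p = 1.1e-08) and 7.82-fold in vWAT (2.88, SE 0.05, adjusted p = 1.5e-07), and it was larger in BAT by 1.73 on the log2 scale (SE 0.07, adjusted p = 1.1e-08). BAT stood below vWAT at d0 (0.596-fold, log2 difference -0.68, SE 0.06, adjusted p = 0.00025) and above it at d3 (2.09-fold, 1.05, SE 0.04, adjusted p = 3e-06). The order of the depots thus turned over between the days for *Car5b*, as it did for the levels of *Car2*.

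With siH19 *Car5b* fell at d0 in both depots. The siH19 libraries had 4.57, 5.03 and 4.95 FPKM in BAT and 8.37, 7.08 and 6.73 in vWAT, all below their siCtrl libraries. The mean was at 60.3% of siCtrl in BAT (log2 difference -0.63, SE 0.07, adjusted p = 0.021) and at 54.7% in vWAT (-0.79, SE 0.09, adjusted p = 0.014). These 2 calls stood near the threshold: in BAT the adjusted p was 0.051 to 0.091 without any 1 of the 6 libraries and 0.057 without a filter on low values, and in vWAT it was 0.056 to 0.068 without any 1 of the siCtrl libraries or without siH19 replicate 2. The log2 difference itself stayed between -0.65 and -0.59 in BAT and between -0.82 and -0.76 in vWAT in the fits that lost the call by leaving out a library.

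At d3 *Car5b* was 185, 179 and 191 FPKM in BAT siH19, below every siCtrl library, at 83.9% of their mean. The log2 difference of -0.25 (SE 0.04) had an adjusted p of 0.012 by limma and was smaller than the 1.3-fold needed for a call. In vWAT at d3 the siH19 libraries, at 115, 108 and 110.1 FPKM, overlapped the siCtrl libraries (log2 difference 0.07, SE 0.04, adjusted p = 0.65). The siH19 difference was lower in BAT than in vWAT at d3 by 0.32 on the log2 scale (interaction -0.32, SE 0.06, adjusted p = 0.0074). It was less negative at d3 than at d0 by 0.38 in BAT (SE 0.07, adjusted p = 0.0079) and by 0.86 in vWAT (SE 0.10, adjusted p = 0.0018). The plot of siH19 changes sets these differences side by side.

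**Figure D2:**
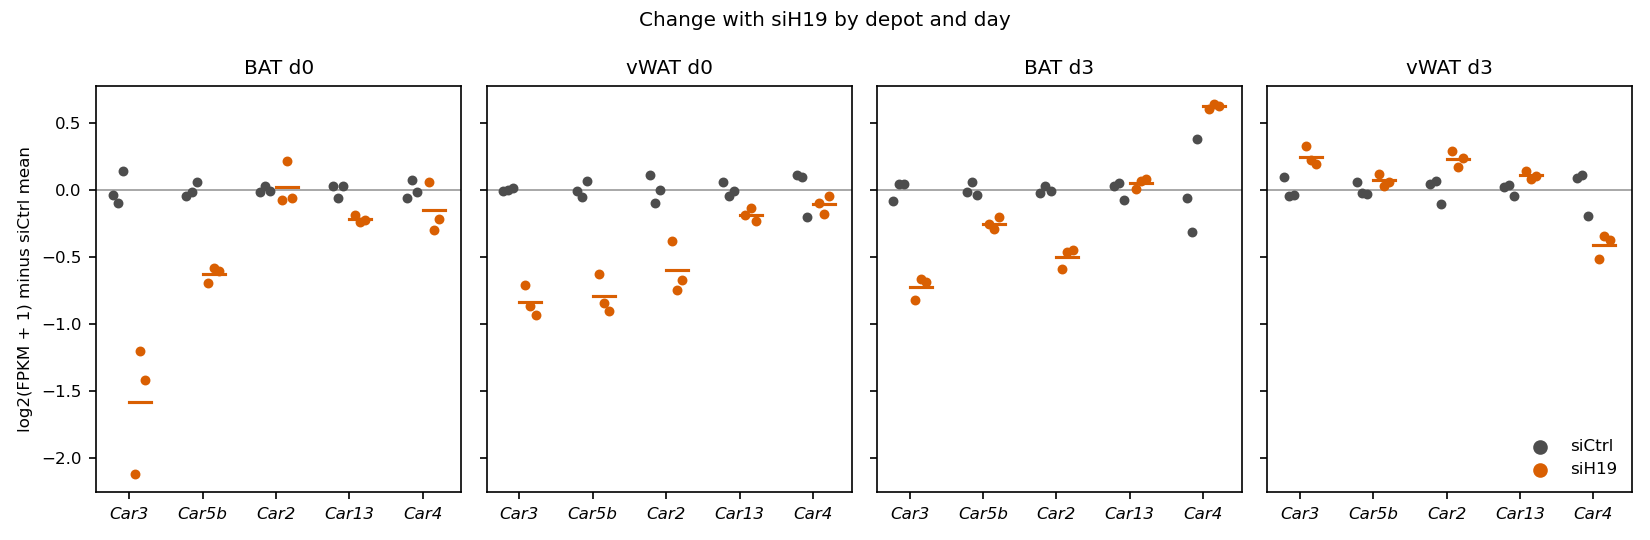
Difference of each library from the siCtrl mean of its depot and day, as log2(FPKM + 1), for the 5 members above 1 FPKM in at least 3 libraries. Points are libraries (3 per siRNA) and the orange lines are siH19 means. At d0 *Car3* and *Car5b* lay below 0 in both depots with siH19. At d3 *Car3* and *Car2* lay below 0 in BAT and above it in vWAT.

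*Car4*, a membrane-anchored enzyme, was a low gene of BAT cells at d3. It was 0.346 ± 0.0644 FPKM in BAT siCtrl at d0 and 2.97 ± 0.993 at d3 (SD, n = 3 each), a ratio of the means of 8.58. In vWAT siCtrl it was 0.311 ± 0.154 at d0 and 1.02 ± 0.227 at d3. No library at d0 reached 1 FPKM, so *Car4* passed the filter on low values through d3, and for the days and depots its levels are given with no test. At d3 the BAT siCtrl libraries lay above those of vWAT, with a ratio of means of 2.92.

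With siH19 in BAT at d3 the *Car4* values were 4.91, 5.04 and 5.00 FPKM, all above the siCtrl values of 2.73, 2.12 and 4.06. The log2 difference of 0.62 (SE 0.18) missed the threshold (adjusted p = 0.058), and siCtrl replicate 3 was the library nearest to the siH19 values. Leaving out that replicate had to widen the difference, so its pass at 0.81 (adjusted p = 0.017) adds no support. With all 24 libraries in the fit the difference passed (adjusted p = 0.0026). That fit takes its spread also from groups in which *Car4* stayed under 1 FPKM. The SD was 0.0644 FPKM in BAT siCtrl at d0 and 0.993 in BAT siCtrl at d3. This pass therefore adds no support either. In vWAT at d3 *Car4* was 0.403, 0.582 and 0.546 with siH19, below 1.13, 1.16 and 0.753 with siCtrl, and too low for a test of its own. The siH19 difference of *Car4* was higher in BAT than in vWAT at d3 by 1.03 (SE 0.22, adjusted p = 0.016), opposite in direction to *Car5b*. *Car4* entered this test through its BAT libraries, so its passing adds no evidence.

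*Car8*, whose protein is known as a partner of the inositol trisphosphate receptor, was below 1 FPKM in all 24 libraries and had no test. In BAT it was 0.525, 0.519 and 0.313 with siCtrl and 0.913, 0.928 and 0.661 with siH19 at d0, and 0.0867, 0.250 and 0.167 against 0.536, 0.298 and 0.433 at d3. The siH19 libraries were above the siCtrl libraries at both days. In vWAT it was 0.122 to 0.191 at d0 and at most 0.0210 at d3, with 2 siCtrl libraries listed at 0. Of the inositol trisphosphate receptor genes *Itpr1*, *Itpr2* and *Itpr3*, none was called by limma with siH19. In BAT at d3, 1 of 2 tested had an unadjusted p under 0.05, and 0 of 2 in BAT at d0, 0 of 2 in vWAT at d3 and 0 of 3 in vWAT at d0. *Car12*, a transmembrane enzyme, ranged from 0.0557 to 0.735 FPKM, and siH19 and siCtrl libraries overlapped in every depot and day.

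Read against all genes, the calls of the 3 testable members were as follows. In the siH19 comparisons, *Car5b* was the call at d0 in BAT, with 2 members tested there and 1.94% of 12651 genes called, and in vWAT, with 2 tested and 1.53% of 13063 genes called. In BAT at d3 none of 3 was called by limma (2 had an unadjusted p under 0.05) against 8.57% of 12500 genes, and in vWAT at d3 none of 2 (1 unadjusted) against 0.0305% of 13097 genes. Between the days *Car5b* and *Car13* were called higher in both depots, where 65.2% of genes in BAT and 50.3% in vWAT were called in either direction. Between depots both were called at d3 and *Car5b* at d0, against 48.6% and 31.2% of genes. For the interactions, *Car5b* was called for depot by siRNA at d3 (10.5% of genes). *Car4* passed there as well, but it entered through its BAT libraries, so this adds no evidence. *Car5b* and *Car13* were called for depot by day (53.0%) and for day by siRNA in BAT (9.06%) and vWAT (1.73%). With counts this small, a share of members says little beyond the values of each gene. With a trimmed mean scaling of the libraries, the median of all genes moved by 0.10 for d3 against d0 in BAT, 0.18 and 0.13 for BAT against vWAT at d3 and d0 and 0.13 for depot by day. Relative to these shifts the calls of *Car5b* and *Car13* for the 2 contrasts of days and the 2 of depots kept their side of the threshold, and only the uncalled d0 depot difference of *Car13* turned sign (0.03 in place of -0.11).

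Adipocyte markers also moved with siH19. Of 9 adipocyte markers tested, 7 fell with siH19 in BAT at d0 and 6 in vWAT at d0, among them *Adipoq*, *Fabp4* and *Pparg*. Over all genes tested, 1.32% and 1.2% were called lower there. In BAT and vWAT at d3 the shares called lower were 2.18% and 0.0229%. At d3, 1 (*Cfd*) was called lower in BAT, where 7 of 9 had an unadjusted p under 0.05 (median log2 difference -0.13). Over all genes 3913 of 12500 had such a p there. None was called by limma in vWAT, where 4 of 9 had an unadjusted p under 0.05, beside 1315 of 13097 genes. The BAT d0 calls of *Adipoq*, *Fabp4*, *Pparg* and *Cfd* were lost without siCtrl replicate 2 or 3 or siH19 replicate 3 (adjusted p = 0.051 to 0.10) and with the replicate number as a block (0.076 to 0.086). Those of *Adipoq*, *Fabp4* and *Cfd* were also lost without siCtrl replicate 1 (0.074 to 0.077) and with no filter on low values (0.068 to 0.072). In vWAT at d0 fewer genes than these 6 stayed called among all genes with the replicate block, so most of the 6 calls were lost there. The count of all called genes in vWAT at d0 also fell without any 1 library. The summed FPKM of the 10 markers listed was 3369 to 3660 with siCtrl and 1636 to 2208 with siH19 in BAT at d0, and 4443 to 4483 against 2616 to 2953 in vWAT at d0. At d3 it was 37662 to 39383 against 34335.0 to 36656 in BAT, and 19543 to 20554 against 21580.2 to 22746 in vWAT. The siH19 mean of this sum was thus 56.7%, 62.5%, 91.8% and 109% of siCtrl, beside 34.4%, 56.1%, 60.4% and 119% for *Car3* and 60.3%, 54.7%, 83.9% and 105% for *Car5b*, in the same order of settings. Other members stood elsewhere: *Car2* was at 104%, 55.8%, 70.3% and 118%, *Car13* at 85.0%, 87.1%, 103% and 108%, and *Car4* in BAT at d3 at 168%. The part of this shift in the changes of the carbonic anhydrases was not tested. The sum of brown adipocyte markers in BAT at d3 was at 60.4% of siCtrl and that of precursor markers at 163%. Of the tested genes, 6 of 8 were called lower and 5 of 6 higher, against 2.18% and 6.39% of all genes. The plot of percentages sets 4 members beside the adipocyte marker sum.

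**Figure D3:**
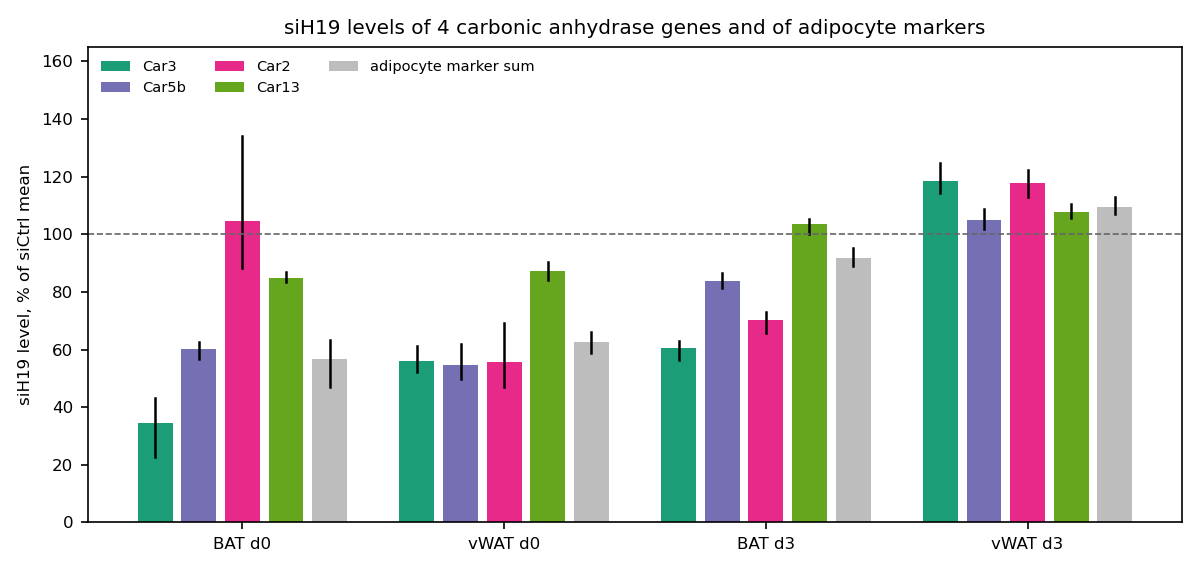
Level with siH19 as a percentage of the siCtrl mean (bars, linear axis from 0; mean of 3 libraries) for 4 carbonic anhydrase genes and for the summed FPKM of 10 adipocyte markers. Black lines run from the lowest to the highest siH19 library and the dashed line marks 100%. *Car3* in BAT stood at 34.4% at d0 and 60.4% at d3, below the marker sum at 56.7% and 91.8%.

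Other cell types were checked because *Car3* is also a muscle gene and *Car2* an erythroid and osteoclast gene. The summed FPKM of skeletal muscle markers was 63.5 to 139 in BAT and 11.97 to 43.7 in vWAT libraries, while *Car3* was higher in vWAT. *Des* was the most abundant of these markers in every vWAT group. Between depots in siCtrl at d0, 6 of 7 tested were called higher in BAT and 1 (*Des*) lower, against 10.2% and 21% of all genes. At d3, 6 of 6 were called higher in BAT, *Des* among them, against 16.5% of all genes. In vWAT siCtrl, 1 of these markers (*Des*) had a mean of at least 1 FPKM at d0 and 2 at d3. The others passed the filter through BAT, where they were higher, so their calls add no evidence. In BAT at d3 every siH19 library had a higher sum than every siCtrl library (84.4 to 94.7 against 63.5 to 76.4). The part of muscle cells in the level of *Car3* was not tested. Of the 6 erythroid genes listed, 4 were found, without *Hbb-bs* and *Hbb-bt*. Their sum was at most 2.13 in any library, and *Alas2* was the most abundant in every group. At d3 the sum was 0.142 to 1.04 with siH19 and 1.37 to 2.13 with siCtrl in BAT, the direction of *Car2*. In vWAT at d3 the 2 overlapped, 0.290 to 1.26 against 0.429 to 1.02. Macrophage and osteoclast markers summed to 283 to 593 in vWAT and 82.6 to 163 in BAT. *Lyz2* was the most abundant in every group. With siH19 at d3 their sum went in the direction of *Car2* in both depots. It was 82.6 to 94.4 against 131 to 163 with siCtrl in BAT, and 528 to 593 against 468 to 512 in vWAT. Called lower in BAT were 2 of 5 tested (*Lyz2* and *Adgre1*), against 2.18% of all genes. In vWAT 0 of 6 were called by limma, and 1 had an unadjusted p under 0.05. The siCtrl mean of the sum was 148 at d0 and 143 at d3 in BAT, and 295 and 491 in vWAT. The depots thus stood in the order of *Car2* at d0 and in the opposite order at d3. Between the days in BAT siCtrl *Acp5* was called higher and *Cd68*, *Adgre1* and *Csf1r* lower, against 29.9% and 35.3% of all genes. The part of erythroid cells, macrophages and osteoclasts in the level of *Car2* was not tested.

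Among the other carbonic anhydrases, 8 were in the table. None was called in a siH19 comparison by limma, where 2 to 4 were tested each time and 0 had an unadjusted p under 0.05. *Car11*, a related protein without classical activity, rose 3.62-fold in vWAT between d0 and d3 (adjusted p = 0.00074). In BAT siCtrl it was 2.03 ± 1.55 FPKM at d0 and 5.10 ± 1.00 at d3 (SD, n = 3 each). At d3 it was 23.7 FPKM in vWAT siCtrl and 5.10 in BAT siCtrl (adjusted p = 0.00032). It was thus higher in vWAT, like the level of *Car3* and unlike *Car5b*, *Car13* and *Car4*. *Car6*, a secreted enzyme, was 1.68 FPKM at d0 and 0.673 at d3 in BAT siCtrl, and 3.05 and 0.549 in vWAT siCtrl. Its libraries reached 1 FPKM at d0 and not at d3 in siCtrl, so it passed the filter through the higher group and no test is given. *Car1*, *Car7*, *Car10* and *Car15* reached 1 FPKM in at most 1 library each.

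Most carboxylases that use bicarbonate rose with differentiation. Of 8 tested, 7 rose and 1 (*Cad*, of pyrimidine synthesis) fell in each depot, with a median log2 difference of 2.78 in BAT and 2.00 in vWAT, beside -0.10 and 0.01 over all genes tested. Of all genes, 29.9% in BAT and 26.3% in vWAT were called higher, and 35.3% and 23.9% lower. *Pcx*, pyruvate carboxylase of the mitochondrial matrix, went from 24.7 to 618 FPKM in BAT (25.0-fold, adjusted p = 1.7e-08) and from 41.6 to 296 in vWAT (7.11-fold, adjusted p = 1.1e-07). *Acacb*, the acetyl-CoA carboxylase of the mitochondrial membrane, went from 0.566 to 28.7 in BAT and from 0.796 to 9.12 in vWAT. It passed the filter through d3, so its place among the 7 adds no evidence.

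With siH19 at d0, *Pcx* fell in BAT to 54.8% of siCtrl (log2 difference -0.83, SE 0.13, adjusted p = 0.031) and in vWAT to 54.2% (-0.87, SE 0.11, adjusted p = 0.016), and *Mccc1*, a leucine pathway carboxylase, fell in vWAT to 74.9% (adjusted p = 0.024). These calls also stood near the threshold. For *Pcx* they were lost in BAT without any 1 library but siH19 replicate 1 (adjusted p = 0.056 to 0.11) and in vWAT without any 1 of the siCtrl libraries or siH19 replicate 2 (0.064 to 0.077), and for *Mccc1* without any 1 library (0.068 to 0.10). In BAT at d3, *Acaca* fell to 59.1% (adjusted p = 0.0086), *Acacb* to 48.8% (adjusted p = 0.0013) and *Pccb*, of propionyl-CoA carboxylase, to 70.9% (adjusted p = 0.0063). That was 3 of 8 tested, with 2.18% of all genes called lower there. The median log2 difference was -0.35 over the list and 0.05 over all genes. In vWAT at d3 none of 8 was called by limma, and 0 had an unadjusted p under 0.05 (median -0.04). *Pcx* in BAT at d3 was at 76.9% (adjusted p = 0.0031), short of the fold needed for a call.

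None of the 5 or 6 transporters of bicarbonate tested was called by limma in any siH19 comparison, and 0 of 5 in BAT at d3, 2 of 6 in BAT at d0, 1 of 5 in vWAT at d3 and 0 of 6 in vWAT at d0 had an unadjusted p under 0.05. Between the days *Slc4a2*, the anion exchanger, fell from 129 to 41.6 FPKM in BAT (adjusted p = 5e-07) and from 109.9 to 50.2 in vWAT (adjusted p = 2.2e-05). *Slc4a7*, a sodium bicarbonate cotransporter, rose 1.63-fold in BAT (adjusted p = 0.00043) and fell to 57.8% in vWAT (adjusted p = 0.00011). Of the proton and lactate transporters, *Slc16a3*, which exports lactate, rose 1.67-fold with siH19 in BAT at d3 (adjusted p = 0.013, and 0.053 without siCtrl replicate 2). It was 1 of 8 tested there, and none of 9 was called by limma in BAT at d0, vWAT at d3 or vWAT at d0, where 1, 4 and 4 had an unadjusted p under 0.05. Over all genes 8.57% were called with siH19 in BAT at d3, 1.94% in BAT at d0, 0.0305% in vWAT at d3 and 1.53% in vWAT at d0. Beside these shares, 1 call among 8 genes says nothing about the list.

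Likeness of pattern was measured by Pearson's r of log2(FPKM + 1) over the 24 libraries against 12605 genes. These libraries share day and depot, so high values are common, and r is given as a description. *Car5b* was most like *Pcx* (r = 0.999), then *Abhd15*, *Gpd1*, *Mdh1* and *Fitm2* (0.998 to 0.999). Among the genes most like *Car2* were *Slc1a5*, *Prdx3*, *Isca1* and *Acadl* (0.997 to 0.998), and *Car2* and *Car5b* had an r of 0.995. *Car13* was most like *Etfdh*, *Etv3*, *March5*, *Mrps22* and *ND2* (0.994 to 0.996). *Car3* stood apart from the other members, with an r of 0.617 with *Car2*, 0.638 with *Car5b*, 0.464 with *Car13* and 0.127 with *Car4*. Its most similar genes, *Zcchc24*, *Rgs2*, *Clk1*, *Dtx4* and *Ifi27l2a*, reached 0.955 to 0.967. *Car4* was most like *Otud6b*, *Nepn*, *Lipf*, *Cmpk1* and *Mvp* (0.960 to 0.967). The scatter of *Car5b* and *Pcx* shows the closest of these pairs.

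**Figure D4:**
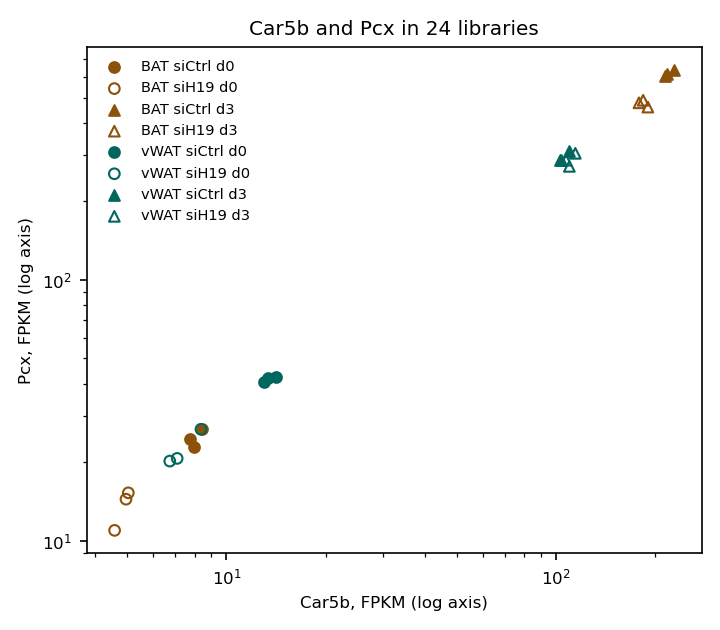
FPKM of *Car5b* against *Pcx* in the 24 libraries, both axes logarithmic. Circles are d0 and triangles d3, filled symbols siCtrl and open symbols siH19, brown BAT and green vWAT. Libraries fell into a d0 cloud and a d3 cloud. At d0, BAT siH19 was lowest and vWAT siCtrl highest for both genes, with BAT siCtrl and vWAT siH19 overlapping between them. At d3, BAT siCtrl lay above BAT siH19 and both above vWAT, where siCtrl and siH19 overlapped.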

How the data were processed

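Groups and replicate numbers came from the library labels. The authors trimmed and aligned reads to GRCm38 (Ensembl genes) with TopHat2 2.0.10 and computed expression with Cufflinks (2.2.1 in the submitters' processing notes) in the QuickNGS workflow. The deposited table holds no counts and does not name its unit, and its values were taken as FPKM, which the study's figures name. Fragments per library are therefore unknown, no counting interval is given, and 100 genes whose median reached 5 FPKM were listed at 0 in some library, so a 0 was not read as absence. No column was left out (0 columns). *Car5a* was not analysed here.

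Values were analysed as log2(FPKM + 1) with limma 3.58.1 in R 4.3.3 (intensity trend), on the 6 libraries of each comparison or the 12 of each interaction, for genes with FPKM of at least 1 in at least 3 libraries. A call needed an adjusted p (Benjamini-Hochberg) below 0.05 and a 1.3-fold change or more, interactions the adjusted p alone. Folds are ratios of mean FPKM, and log2 differences understate changes of low genes. The scripts were tested on simulated data. The members and gene lists were chosen with earlier results of these data known. Named genes were the 7 members, listed genes that were called, and the 5 most similar genes per member, of which 1 is not reported here. *Itpr2*, *Itpr3*, *Itpr1*, *Des* and *Ucp1* were named as list genes. Alternatives were another pseudocount (0.1), no filter, trimmed mean scaling, all 24 libraries in 1 fit, the replicate number as a block, no minimum fold, and leaving out each library. Labels do not say that replicates came from separate animals, so p-values measure the spread between these cultures.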

Additional observations from a re-analysis of the deposited data

Results flagged for a closer look

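Differences that themselves differed between depots or days are listed here, on the log2(FPKM + 1) scale. The siH19 difference at d3, BAT minus vWAT, was 1.03 for *Car4* and -0.32 for *Car5b*. The rise from d0 to d3 in siCtrl, BAT minus vWAT, was 0.91 for *Car4*, which reached 1 FPKM at d3 only and so entered the fit through its higher group, 1.73 for *Car5b* and 0.91 for *Car13*. The siH19 difference at d3 minus that at d0 was 0.38 for *Car5b* and 0.27 for *Car13* in BAT, and 0.86 for *Car5b* and 0.30 for *Car13* in vWAT. These passed the interaction test by limma, which for the rise of *Car4* is no evidence. The same holds for its siH19 difference, as *Car4* entered that fit through its BAT libraries.

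For *Car2* and *Car3* the difference was not tested, because both were chosen for their changes. Every siH19 library lay below every siCtrl library in BAT at d3 and above in vWAT at d3, and BAT minus vWAT was -0.73 for *Car2* and -0.97 for *Car3*. In vWAT every siH19 library lay below at d0 and above at d3, and d3 minus d0 was 0.83 for *Car2* and 1.08 for *Car3*. No group had more than 3 libraries, so no library was tested as far from its group.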

How the results depend on the processing

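Counts of all called genes depended on the settings as follows, and the cause was not tested unless the setting itself changes the number of genes or samples. For siH19 in BAT at d3, 1071 genes became 2023 with no minimum fold and 631 to 916 without 1 library, the lowest without siCtrl replicate 2. For BAT at d0, 245 became 395 with no minimum fold, 35 with no filter, 518 with all 24 libraries, 2 with the replicate block and 4 to 74 without any 1 library. For vWAT at d3, 4 became 20 with all 24 libraries, 0 by limma with the replicate block (1315 genes had an unadjusted p under 0.05 without it) and 1 to 5 without 1 library (1 without siCtrl replicate 1 or 2 or siH19 replicate 1, 2 without siH19 replicate 3). For vWAT at d0, 200 became 65 with no filter, 385 with all 24 libraries, 2 with the replicate block and 37 to 122 without any 1 library. BAT against vWAT at d0 went from 4096 to 6386 with no minimum fold. Depot by siRNA went from 1451 to 889 to 1432 without 1 library (889, 935 and 929 without BAT siCtrl replicate 2, vWAT siCtrl replicate 3 and vWAT siH19 replicate 1 at d3). Day by siRNA in BAT went from 1230 to 818 with trimmed mean scaling and to 801 to 1091 without 1 library (lowest without siCtrl d3 replicate 2), and in vWAT from 241 to 127 to 241 (158, 155, 150, 137 and 127 without siCtrl d0 replicate 2, siH19 d0 replicate 2, siCtrl d3 replicate 2, siCtrl d3 replicate 3 and siH19 d3 replicate 1). Trimmed mean scaling moved the share of called genes that were higher from 74.6% to 55.8% for siH19 in BAT at d3, 21.5% to 34.2% in vWAT at d0, 33.9% to 51.4% and 32.8% to 51.3% for BAT against vWAT at d3 and d0, 66.6% to 44.3% for depot by siRNA, 47.0% to 58.5% for depot by day and 86.0% to 65.3% for day by siRNA in BAT.

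Of the members, *Car13* reversed under trimmed mean scaling for siH19 in BAT at d3 (-0.0167) and for BAT against vWAT at d0 (0.0323), neither called. *Car3* for depot by day went from -0.07 to 0.09 under that scaling. Replicate numbers did not pair the cultures (r of same-numbered deviations -0.143 to 0.088). The block took the adjusted p of *Car5b* at d0 to 0.086 in BAT and 0.072 in vWAT, and that of *Car13* for day by siRNA to 0.064 and 0.076. It also took the d0 adjusted p of *Pcx* to 0.097 in BAT and 0.069 in vWAT. Over all member values and settings, 555 kept direction and side of the threshold, 38 lost a call, 5 gained one, 2 reversed and 19 untested values moved by more than the replicate SD. For the siH19 and day calls of 16 other named genes, 485 values kept the call and direction and 75 lost the call. Relative depth was lower in BAT, and members under 1 FPKM were not testable.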
